A study of Mus musculus with 4 samples.

Results

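Transcripts of 10 genes for receptors of extracellular purines and for their handling were measured in primary microglia of CD1 mice: P2rx4, P2rx7, P2ry2, P2ry6, P2ry14, Entpd1, Adora1, Adora2a, Adora2b and Adora3. They were taken by symbol from the 54532 genes listed in both count tables of the series, and all 10 were found. The 4 poly-A libraries came from microglia of male CD1 pups taken in the days after birth, grown out of mixed cortical glia in GM-CSF and then held in serum-free medium with IL-34, TGFβ2, GM-CSF and cholesterol. In the EGCG group (2 libraries), cultures received 1 µM EGCG, a flavan-3-ol of green tea, for 24 h, and in the vehicle group (2 libraries) they received DMSO for 24 h. The study's methods give the same strain, isolation and medium for all 4 cultures, so the values describe microglia from neonatal pups after weeks in culture. The day of isolation of each culture is not given in the sources used here. Each group has a replicate 1 and a replicate 2, numbered so in the labels as biological replicates. No source used here says whether same-numbered libraries shared a preparation of cells.

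Cells that are damaged or active release ATP, ADP, UTP, UDP and UDP-sugars, and microglia sense them with P2X receptors, which are ATP-gated cation channels, and P2Y receptors, which couple to G proteins. Ectonucleotidases on the cell surface cut the nucleotides down towards adenosine, which acts on the adenosine receptors. In microglia these receptors are known for steering process movement, migration, phagocytosis and the release of interleukin-1β.

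Total counts ran from 33805071 to 54970300 per library, the highest in EGCG replicate 2. All 8 microglia markers examined were detected in every library, with summed levels of 4375 and 5735 CPM in the vehicle and 4740 and 5841 CPM in the EGCG replicate 1 and 2 libraries, where CPM is the count relative to the TMM-scaled library size. Summed markers of other cells were below those of microglia in every library, but uneven. Single stromal genes reached the CPM of some of the 10 genes, not scaled by gene length. Col1a2 was at 136 CPM in vehicle replicate 1, where P2rx7 had 123 CPM. Summed levels of 6 stromal genes (Col1a1, Dcn and others) were 422 and 160 CPM in vehicle and 1.40 and 177 CPM in EGCG, so that EGCG replicate 1 stood apart from the other libraries. Summed levels of 7 astrocyte genes were 12.5 to 17.7 CPM, of 7 oligodendrocyte-lineage genes 113 to 151 CPM and of 4 neuronal genes 0.791 to 17.5 CPM. Those of 3 endothelial genes were 0.905 to 16.8 CPM, and the 3 did not behave alike. Cldn5 was at 0 in every library. Pecam1 was 0.061 and 15.8 CPM in vehicle and 0.094 and 13.4 CPM in EGCG, higher in replicate 2. Cdh5 was 2.41 and 0.928 CPM in vehicle and 0.811 and 0.236 CPM in EGCG, higher in replicate 1. In bulk RNA, fewer cells of a type and less RNA per cell cannot be told apart.

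EGCG-treated microglia did not differ detectably from vehicle in any of the 10 transcripts in the fit on treatment alone. Between the replicates, 5 of the 10 were higher and 4 lower in replicate 2 in both groups. Of all 13811 genes tested, 5829 were higher and 5620 lower in replicate 2 in both groups. In edgeR's quasi-likelihood F test over 13811 protein-coding genes, 0 of the 10 genes had an unadjusted p under 0.05, beside 0.116% of all genes tested. Without EGCG replicate 1, the library with few stromal transcripts, the EGCG group held 1 library. A count of genes passing there cannot decide whether stromal cells bear on this result. In that fit the log2 fold changes ran from -0.41 for P2ry2 to 0.55 for P2ry6, with Adora1 left out. None of the 10 had an adjusted p under 0.1 (0% of all genes tested, that is 0 of 13811 by edgeR and 1 by DESeq2). With the replicate block, 1 of all genes tested passed in edgeR and 7 in DESeq2, none of them among the 10. The study itself named genes past its adjusted threshold, and none of those was among the 10. Each of the 10 had an adjusted p = 1.00 in edgeR, and for each the 95% interval of the log2 fold change spanned 0. EGCG and vehicle libraries overlapped for every one of the 10, where 11.9% of all genes had groups that did not overlap. The median log2 fold change of the 10 was 0.07, beside 0.01 over all genes tested.

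P2rx4 and P2rx7 encode the P2X4 and P2X7 channels, of which P2X7 opens at high ATP and is a known trigger of inflammasome activation. They lie in tandem on the same strand, P2rx7 at chr5:122643911-122691432 and P2rx4 at chr5:122707544-122729738 (GRCm38.p6), with 16111 bases between them. P2rx4 had 292 and 415 CPM in vehicle replicates 1 and 2 and 313 and 395 CPM in the EGCG replicates. Both replicate 2 libraries were above both replicate 1 libraries, and the treatment groups overlapped. The group means were 353 ± 87.0 CPM in vehicle and 354 ± 58.2 CPM in EGCG (SD, n = 2 each), a log2 fold change of 0.00 (SE 0.26, 95% interval -0.72 to 0.72). P2rx7 was likewise higher in both replicate 2 libraries, with 123 and 173 CPM in vehicle and 123 and 167 CPM in EGCG, and its groups overlapped. Its log2 fold change was -0.03 (SE 0.26, 95% interval -0.77 to 0.70).

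P2ry6 encodes the UDP receptor P2Y6, known for its role in microglial phagocytosis, and P2ry2 encodes P2Y2, a receptor for ATP and UTP. They too are tandem neighbours on the same strand, P2ry6 at chr7:100937630-100974649 and P2ry2 at chr7:100996568-101012866, with 21918 bases between them. P2ry6 had 117 and 257 CPM in vehicle and 120.5 and 275 CPM in EGCG. The replicate 2 libraries were far above the replicate 1 libraries in both groups. Its means of 187 ± 98.7 and 198 ± 109 CPM (SD, n = 2 each) gave a log2 fold change of 0.08 (SE 0.59, 95% interval -1.57 to 1.73). P2ry2 ran the other way, with 53.2 and 31.5 CPM in vehicle and 56.6 and 31.8 CPM in EGCG. Within each replicate number the EGCG and vehicle libraries were close, and the log2 fold change was 0.06 (SE 0.42, 95% interval -1.10 to 1.22).

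P2ry14 encodes P2Y14, the receptor for UDP-glucose and other UDP-sugars, and lies at chr3:59113855-59153618 in the same cluster as P2ry13 and P2ry12. Its level was 40.4 and 22.04 CPM in vehicle and 48.2 and 24.3 CPM in EGCG, so that the EGCG library was the higher of the pair within each replicate number while the groups overlapped. The fitted log2 fold change was 0.21 (SE 0.48, 95% interval -1.13 to 1.56). With the replicate number as a block it was 0.20 (SE 0.06, edgeR adjusted p = 0.995). P2ry14 was the only one of the 10 to pass an unadjusted p of 0.05 in the blocked fit, in which 3.21% of all genes tested passed, and it did not pass in DESeq2 with the same block. Reads from Med12l, which lies over P2ry14 on the opposite strand, were counted at 134 to 264 per library, and the strand setting of the counting is not given in the sources used here.

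Entpd1 encodes CD39, the ectonucleotidase that turns ATP and ADP into AMP. It lies at chr19:40612366-40741602. It had 104 and 158 CPM in vehicle and 121 and 149 CPM in EGCG, with both replicate 2 libraries highest and the groups overlapping. The EGCG library was the higher of the pair in replicate 1 and the lower in replicate 2, and the log2 fold change was 0.05 (SE 0.27, 95% interval -0.70 to 0.79). The pseudogene Gm8783, on the same strand within the span of Entpd1, was given 19 to 59 counts per library.

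Of the adenosine receptors, those of Adora1 and Adora3 couple to inhibitory and those of Adora2a and Adora2b to stimulatory G proteins. Adora3, at chr3:105870858-105908926, had 8.41 and 17.9 CPM in vehicle and 7.55 and 17.7 CPM in EGCG. The replicate 2 libraries were the higher in both groups, as for P2ry6, and the log2 fold change was -0.06 (SE 0.60, 95% interval -1.73 to 1.61). Adora3 shares its strand and part of its span with Tmigd3, which was given 3 to 13 counts per library, so reads in the shared part could have been split.

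Adora2b, at chr11:62248984-62266453, had 5.12 and 3.93 CPM in vehicle and 5.93 and 5.06 CPM in EGCG. Its means were 4.52 ± 0.843 and 5.49 ± 0.617 CPM (SD, n = 2 each). The difference was less than the spread between libraries could separate, with a log2 fold change of 0.28 (SE 0.29, 95% interval -0.53 to 1.09). Adora2a, at chr10:75316877-75334784, had 3.90 and 2.18 CPM in vehicle and 3.93 and 2.59 CPM in EGCG. Its replicate 1 libraries were the higher in both groups, and the log2 fold change was 0.10 (SE 0.47, 95% interval -1.21 to 1.40). Adora1, at chr1:134199223-134235431, had 2 counts in each vehicle library and 1 and 6 counts in the EGCG libraries. With 3 counts taken as the least that a library can show (0.0544 to 0.0936 CPM, counting error only), Adora1 was at or under that floor in all libraries but EGCG replicate 2, and no fold is given.

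Within each replicate number, the EGCG library had the higher level for 5 of the 10 genes in both replicates (P2ry2, P2ry6, P2ry14, Adora2a and Adora2b), beside 29.9% of all genes tested. It had the lower level in both for 2 (P2rx7 and Adora3), beside 20.6% of all genes tested. Among the 9 genes other than Adora1, the within-replicate differences ranged from -0.15 to 0.36 on the log2 scale. In replicate 1 they ran from -0.15 for Adora3 to 0.25 for P2ry14, and in replicate 2 from -0.08 for Entpd1 to 0.36 for Adora2b. The 95% intervals of the 4-library fit were much wider than these differences. In that fit, whose error holds the difference between replicates, they allowed 0.608- to 1.65-fold for P2rx4 and 0.336- to 3.32-fold for P2ry6. With the replicate number as a block the log2 fold changes were 0.01 (SE 0.06) for P2rx4 and 0.07 (SE 0.05) for P2ry6, so the wide limits belong to the fit without the block.

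**Figure D1:**
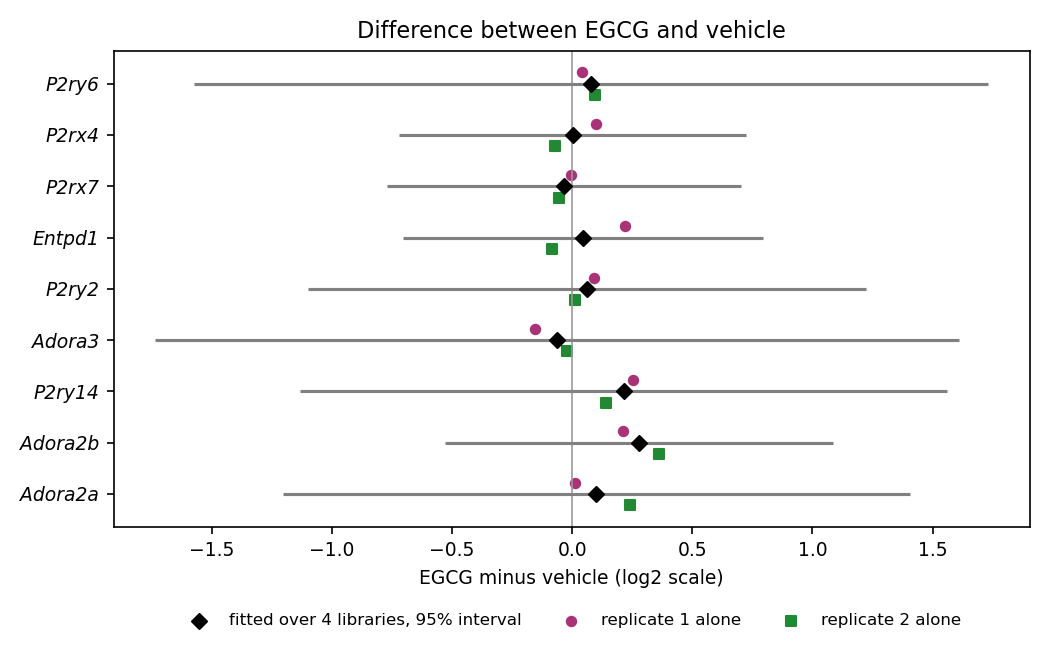
EGCG minus vehicle on the log2 scale for 9 genes (Adora1 left out for its low counts), with the edgeR estimate over 4 libraries and its 95% interval (diamonds and bars) and the difference within replicate 1 (circles) and replicate 2 (squares). All intervals span 0 and the within-replicate values lie between -0.15 and 0.36.

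Levels are compared between genes only per kilobase of annotated exon. P2ry6 had the highest mean level, 66.6 CPM per kilobase, followed by P2rx4 with 50.3, P2rx7 with 24.5, Entpd1 with 23.9 and P2ry2 with 11.0 CPM per kilobase. The adenosine receptors and P2ry14 formed the lower part, with Adora3 at 3.46, P2ry14 at 3.05, Adora2b at 2.72, Adora2a at 1.03 and Adora1 at 0.011 CPM per kilobase. Several neighbours in this order could not be separated. P2ry6 was above P2rx4 in 2 of 4 libraries, P2rx7 above Entpd1 in 3, Adora3 above P2ry14 in 2 and P2ry14 above Adora2b in 2. The other neighbouring pairs had ranges that did not overlap over the 4 libraries.

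**Figure D2:**
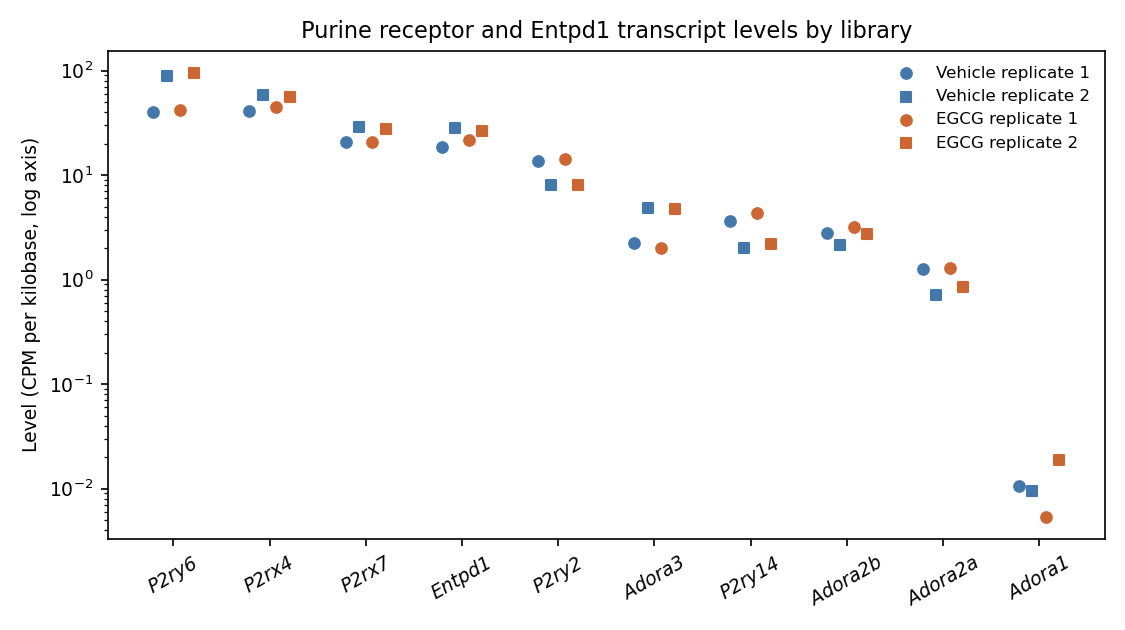
Level of each of the 10 genes in CPM per kilobase (log axis), ordered by mean, in the vehicle (blue) and EGCG (orange) libraries of replicate 1 (circles) and replicate 2 (squares). Means run from 66.6 for P2ry6 to 0.011 for Adora1, and squares and circles separate more than the colours for all genes but Adora2b and Adora1.

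The differences between the replicate 1 and replicate 2 libraries, given as a description with no test, were repeated in vehicle and in EGCG. P2ry6 was 2.19-fold higher in replicate 2 among vehicle libraries and 2.28-fold higher among EGCG libraries. Adora3 was 2.12-fold and 2.33-fold higher. P2rx4 (1.42- and 1.26-fold), P2rx7 (1.40- and 1.36-fold) and Entpd1 (1.52- and 1.23-fold) were also higher in replicate 2. The opposite order held for P2ry14, 1.83-fold higher in replicate 1 among vehicle and 1.98-fold among EGCG libraries, P2ry2 (1.69- and 1.78-fold), Adora2a (1.77- and 1.51-fold) and Adora2b (1.30- and 1.17-fold). Directions were therefore 5 genes higher in replicate 2 and 4 lower, also under the other scalings tried, with Adora1 mixed. Most genes kept 1 direction too: of all 13811 tested, 5829 were higher and 5620 lower in replicate 2 in both groups.

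A difference of more than 2-fold in the same direction in both groups was seen for 2 of the 10 genes, P2ry6 and Adora3, beside 12% of all genes tested. More than 1.5-fold was seen for 5 of the 10, with P2ry2, P2ry14 and Adora2a added, beside 23.5% of all genes tested. The median size of the replicate difference was 0.68 in vehicle and 0.71 in EGCG on the log2 scale for the 10 genes, and 0.38 and 0.35 over all genes tested. Microglia markers differed between the replicates too, and in both directions. Cx3cr1 was 267 and 605 CPM in the vehicle replicates and 274 and 637 CPM in the EGCG replicates. Fcrls was 94.4 and 732 CPM in vehicle and 99.7 and 629 CPM in EGCG, and Tmem119 was 35.1 and 11.2 CPM in vehicle and 26.7 and 11.8 CPM in EGCG. Of the 4 neuronal genes, Snap25 was 17.3 and 0.518 CPM in vehicle and 16.4 and 0.653 CPM in EGCG. The others, Tubb3, Rbfox3 and Syt1, had 0 to 15 counts per library, and none of them was higher in replicate 1 in both groups. The part of these marker differences in the receptor values was not tested.

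**Figure D3:**
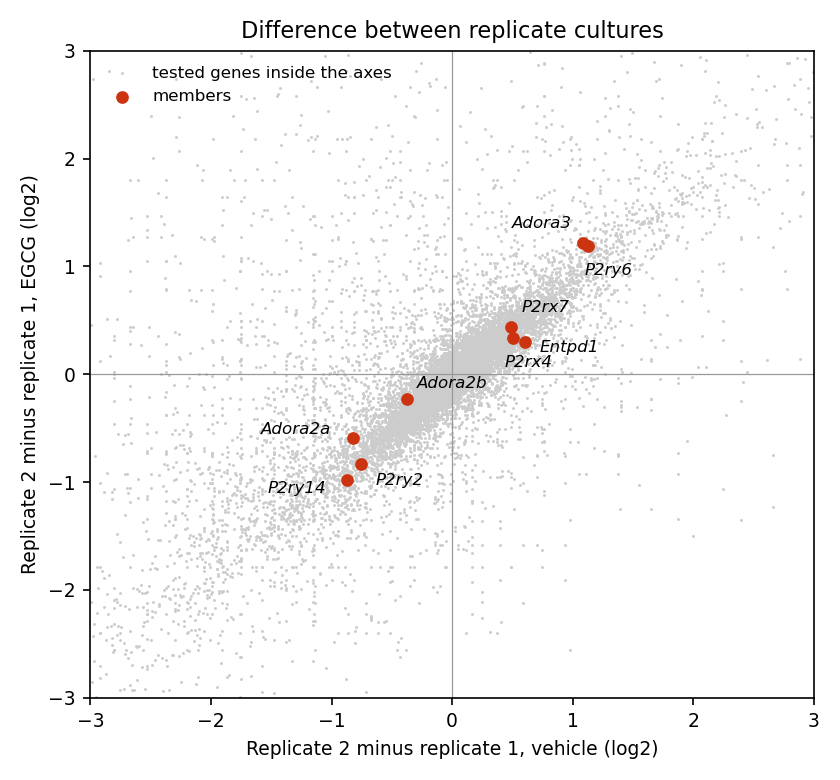
Replicate 2 minus replicate 1 in log2 CPM among vehicle libraries (x axis) and among EGCG libraries (y axis) for 9 genes (red; Adora1 left out) over all tested genes inside the axes (grey). P2ry6 and Adora3 lie at the upper right beyond 1 on both axes, and P2ry14, P2ry2, Adora2a and Adora2b at the lower left.

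Ratios between the genes within a library, which no scaling of libraries can move, separated the tandem pairs. The ratio of P2rx4 to P2rx7 per kilobase was 2.01 and 2.04 in the vehicle replicates and 2.16 and 2.01 in the EGCG replicates, and so varied little. The ratio of P2ry6 to P2ry2 was 2.999 and 11.1 in vehicle and 2.90 and 11.8 in EGCG. That of the UDP receptor P2ry6 to the UDP-sugar receptor P2ry14 was 11.1 and 44.6 in vehicle and 9.58 and 43.2 in EGCG. Both ratios were therefore far higher in the replicate 2 libraries whatever the treatment. Among adenosine receptors, Adora3 was below Adora2b in replicate 1 (ratios of 0.813 in vehicle and 0.630 in EGCG) and above it in replicate 2 (2.26 and 1.73). Adora2b was above Adora2a throughout, at 2.18 to 3.24 times its level per kilobase.

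**Figure D4:**
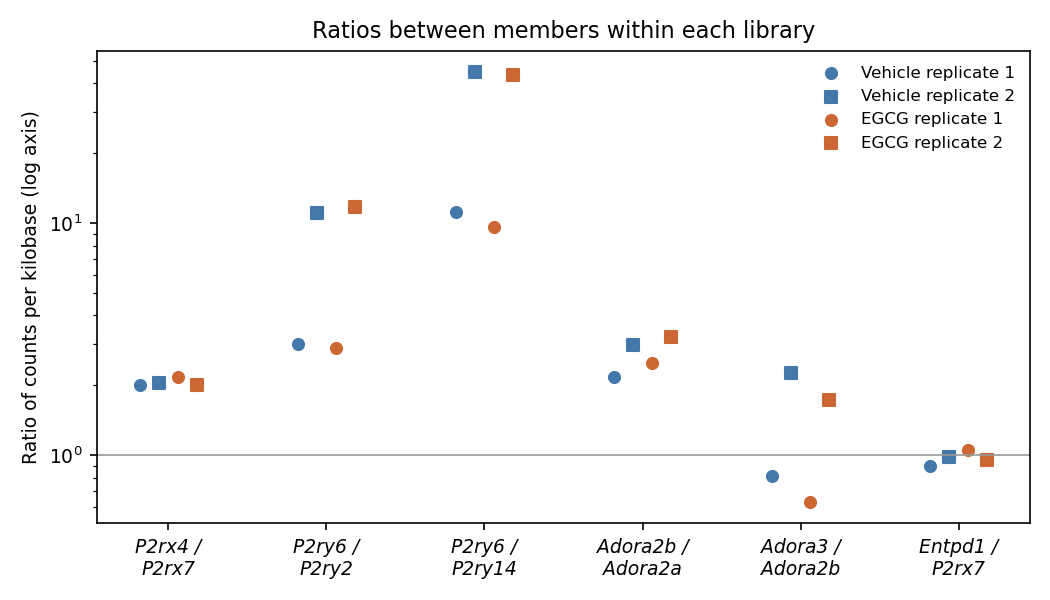
Ratio of counts per kilobase between pairs of genes within each library (log axis), with vehicle in blue, EGCG in orange, replicate 1 as circles and replicate 2 as squares. P2rx4 to P2rx7 stays between 2.01 and 2.16, while P2ry6 to P2ry2 moves from about 3 in replicate 1 to over 11 in replicate 2.

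Upstream sequences are shown for some of the genes higher in replicate 2 (P2rx4, P2rx7, Adora3) and some of those lower (P2ry2, P2ry14), since these moved in opposite directions. They are the parts outside annotated exons of the 250 bases before a RefSeq start site (GRCm38.p6), on the gene's strand, at chr5:122707294-122707543 (+) for P2rx4, chr5:122643677-122643910 (+) for P2rx7, chr3:105904171-105904420 (+) for Adora3, chr7:101012054-101012303 (-) for P2ry2 and chr3:59153619-59153742 (-) for P2ry14. Capitals mark matches to 4 motifs searched on both strands, GAGGAAGT (PU.1, a factor of macrophages and microglia), TGANTCA (AP-1), TGACGTCA (cyclic AMP response element) and GGGCGG (GC box), and to TATAAA on the gene's strand.
P2rx4: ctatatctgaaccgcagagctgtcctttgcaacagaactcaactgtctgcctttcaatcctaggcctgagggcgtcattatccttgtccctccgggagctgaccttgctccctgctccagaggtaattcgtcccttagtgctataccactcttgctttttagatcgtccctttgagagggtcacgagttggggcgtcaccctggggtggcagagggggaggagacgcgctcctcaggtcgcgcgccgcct
P2rx7: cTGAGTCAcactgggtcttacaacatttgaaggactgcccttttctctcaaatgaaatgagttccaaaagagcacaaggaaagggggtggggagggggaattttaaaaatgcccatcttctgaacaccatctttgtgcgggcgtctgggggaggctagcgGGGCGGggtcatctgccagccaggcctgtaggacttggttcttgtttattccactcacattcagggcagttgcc
Adora3: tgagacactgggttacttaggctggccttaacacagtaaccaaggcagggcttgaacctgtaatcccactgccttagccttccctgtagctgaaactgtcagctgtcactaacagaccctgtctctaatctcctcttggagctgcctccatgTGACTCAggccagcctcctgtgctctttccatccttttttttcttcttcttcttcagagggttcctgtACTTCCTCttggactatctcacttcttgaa
P2ry2: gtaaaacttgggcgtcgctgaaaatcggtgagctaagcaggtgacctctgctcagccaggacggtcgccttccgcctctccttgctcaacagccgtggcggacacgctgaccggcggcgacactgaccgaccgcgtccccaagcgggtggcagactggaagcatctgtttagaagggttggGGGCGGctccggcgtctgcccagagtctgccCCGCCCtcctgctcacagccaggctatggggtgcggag
P2ry14: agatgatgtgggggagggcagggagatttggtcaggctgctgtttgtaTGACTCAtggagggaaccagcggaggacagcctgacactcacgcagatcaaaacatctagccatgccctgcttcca

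Adora3 held a PU.1 match from base -30 and an AP-1 match from base -98, counted from its start site, while 3.20% and 7.81% of all 32851 promoter windows of 300 bases held these motifs. The start sites used for P2rx7, Adora3, P2ry2 and P2ry14 lie within the spans that the files give to these genes, so that the printed stretches of Adora3 and P2ry2 are themselves inside the gene. AP-1 matches were also in P2rx7 from base -249 and in P2ry14 from base -202. GC boxes, held by 35.7% of all windows, were at -90 in P2rx7 and at -69 and -38 in P2ry2. The printed part of P2rx4 had no match to these letters. The shares of all windows count matches anywhere in 300 bases, which run past the start site, while the printed parts are shorter. Outside the printed parts, GC boxes were at base 20 in P2rx4, -11 in P2rx7 and 3 and 13 in P2ry2. The cyclic AMP response element and TATAAA (1.79% and 8.32% of all windows) had no match in the printed sequences. AP-1 and GC box matches were thus present in printed genes of both directions. Adora2b, also lower in replicate 2, was not printed, and its stretch of 250 bases held GC boxes and no AP-1 match. P2ry6 and Adora2a had no RefSeq window, and that of Entpd1 had no upstream bases outside annotated exons that could be printed.

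Other genes of the purine pathway were counted as a list of 36 receptors, enzymes, transporters and release channels, of which 23 passed the filter on low counts. None of the 23 had an unadjusted p under 0.05 in edgeR. A positive log2 fold change was found for 15 and a negative one for 8, beside 7486 and 6325 of all 13811 genes tested. The median was 0.12, beside 0.01 over all genes tested. The ADP receptor genes P2ry12 and P2ry13, neighbours of P2ry14 and known for homeostatic microglia, did not move alike between the replicates. P2ry12 was 15.9 and 24.1 CPM in vehicle and 18.3 and 24.1 CPM in EGCG, a log2 fold change of 0.08. P2ry13 was 46.8 and 35.5 CPM in vehicle and 54.5 and 36.3 CPM in EGCG, a log2 fold change of 0.14.

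Nt5e, which encodes CD73 and makes adenosine from AMP, was 34.0 and 2.37 CPM in vehicle and 16.0 and 3.14 CPM in EGCG. Its level followed the replicate number more than the treatment, with a log2 fold change of -0.93 (SE 1.48), which was -0.46 with the replicate block in edgeR and -0.36 with it in DESeq2. Without vehicle replicate 1 it was 2.01. Within replicate 1 it was lower with EGCG, where summed stromal markers were 422 CPM in vehicle and 1.40 CPM in EGCG, and the part of those cells in the Nt5e value was not tested. Ada (adenosine deaminase) and Pnp (purine nucleoside phosphorylase), which break adenosine and inosine down, were the 2 of the 23 whose groups did not overlap, both higher in EGCG, beside 11.9% of all genes tested. Ada was 19.7 and 22.6 CPM in vehicle and 23.7 and 25.0 CPM in EGCG, a log2 fold change of 0.20 (SE 0.15). Pnp was 47.0 and 50.3 CPM in vehicle and 54.9 and 55.7 CPM in EGCG, a log2 fold change of 0.18 (SE 0.12). The files place Pnp2 within the span of Pnp on the same strand, with 3 to 9 counts per library, and how reads shared by both were counted is not given in the sources used here. Neither Ada nor Pnp passed in the fit without the block. With the block in edgeR these 2 of the 23 passed the unadjusted threshold, beside 3.21% of all genes tested, and not the adjusted one (edgeR adjusted p = 0.995 for both). Neither passed in DESeq2 with the same block. Without vehicle replicate 1 the log2 fold change of Ada was 0.11, and without EGCG replicate 2 it was 0.14.

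The nucleoside transporters Slc29a3 and Slc29a1 varied little. Slc29a3, an intracellular transporter, was 176 and 186 CPM in vehicle and 183 and 189 CPM in EGCG. Slc29a1, at the plasma membrane, was 86.0 and 81.9 CPM in vehicle and 87.3 and 78.3 CPM in EGCG. Their log2 fold changes were 0.03 and -0.02. More than 2-fold between replicates in both groups was seen for 6 of the 23, beside 12% of all genes tested. Of these, 5 were higher in replicate 1 (P2rx3, P2rx5, P2ry1, Nt5e and Slc28a2) and 1, P2rx1, in replicate 2, and P2rx1 and P2rx3 had a library at or under 3 counts. P2ry1 and P2rx5, chosen after their values were seen, were 13.9- and 10.01-fold and 6.24- and 7.60-fold higher in replicate 1 in vehicle and EGCG.

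The genes whose log2 CPM, centred over the 4 libraries, lay nearest to the 2 most abundant of the 10 were read off as a description. Nearest to P2ry6 were Ldhb, Birc3 and Cx3cr1, at root mean square distances of 0.0138, 0.0213 and 0.0227 on the log2 scale, with 123 genes within 0.1. Nearest to P2rx4 were Cenpt, Tyk2 and Cep350, at 0.00985, 0.0104 and 0.0120, with 1655 genes within 0.1. The P2ry6 pattern, which spans more than 2-fold, was thus shared by far fewer genes at this distance than the flatter P2rx4 pattern.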

How the data were processed

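The authors deposited raw counts per gene, 1 table per replicate with a vehicle and an EGCG column, from strand-specific poly-A libraries sequenced in pairs and aligned with HISAT2 to GRCm38.p6 (per the labels and the study's methods). The counting program, the annotation and the handling of reads matching several genes are not given in the sources used here, and these bear on overlapping genes. The deposited tables also hold another column, the gene length, which for the 10 genes equals the exon union of GENCODE M21 and was used only for values per kilobase.

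Tables were joined on the Ensembl identifier (54532 genes, 22046 protein-coding). Rows without an Ensembl identifier (697 and 329) were not used. Counts were tested in R 4.3.3 with edgeR 4.0.16 (TMM, quasi-likelihood F test, two-sided, treatment only) on the protein-coding genes whose counts came to 10 or more in all, with Benjamini-Hochberg adjustment over all 13811. Thresholds were an unadjusted p under 0.05 and an adjusted p under 0.1. Log2 CPM used a prior count of 2. With 2 libraries against 2 and no block, no permutation of libraries can give a two-sided p below 0.333. P-values therefore rest on the model, which sets the difference against a spread between these libraries estimated in part across all genes. Alternatives were DESeq2 1.42.0, other scalings and filters, a replicate block and leaving out each library. Figures were drawn with matplotlib 3.10.9.

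The 10 genes and the pathway and marker lists were chosen with earlier results of these data known. Named are all 10, P2ry12, P2ry13 and Nt5e, the 2 most abundant per kilobase of each class of other purine genes, any of those with an unadjusted p under 0.05, and the 3 genes nearest in pattern to each of the 2 most abundant of the 10. The scripts were tested on simulated data. Promoter windows came from RefSeq (GRCm38.p6), which gave one for 8 of the 10 genes.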

Additional observations from a re-analysis of the deposited data

How the results depend on the processing

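At an unadjusted p under 0.05, 0 of the 10 genes passed in the fit on treatment alone. Among the alternatives that kept every library the count was also 0, except with the replicate block in edgeR, where it was 1 (P2ry14). Among the 23 other purine genes it was 2 with the replicate block (Ada and Pnp) and 0 to 1 on leaving out each library, the 1 being Gja1 without EGCG replicate 2, and 0 in the other alternatives. Over all genes tested, the count at an unadjusted p under 0.05 was 16, 24 with DESeq2, 3 with at least 10 counts in every library, 35 with all biotypes, 444 with the replicate block and 153 with DESeq2 and the block, and 15, 59, 8 and 134 without vehicle replicate 1, vehicle replicate 2, EGCG replicate 1 and EGCG replicate 2. At an adjusted p under 0.1 it was 0, with 1 in DESeq2, 1 with the replicate block and 7 with DESeq2 and the block. The number of the 10 genes past the fold between replicates was 2 at 2-fold and 5 at 1.5-fold. The labels do not say that a replicate number marks a shared preparation. Across genes, the replicate difference in vehicle correlated with that in EGCG (r = 0.64), and the treatment difference in replicate 1 did not with that in replicate 2 (r = -0.05), where genes are not independent replicates. The block changed no other call among the genes named.

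The log2 fold change of P2rx4, at 0.00, was -0.0034 with DESeq2 and with relative log expression factors, -0.012 with upper-quartile factors and -0.0056 with at least 10 counts in every library. Leaving out each library moved signs, and with 1 library left in a group these fits cannot decide whether a gene passes a threshold. The log2 fold change ran from -0.23 to 0.26 for P2rx4, -0.30 to 0.22 for P2rx7, -0.41 to 0.49 for P2ry2, -0.66 to 0.74 for P2ry6, -0.36 to 0.72 for P2ry14, -0.23 to 0.36 for Entpd1, -0.28 to 0.58 for Adora2a and -0.83 to 0.58 for Adora3. For Adora2b it stayed above 0, from 0.08 to 0.48. It ran from -2.54 to 2.01 for Nt5e, -0.18 to 0.40 for P2ry12, -0.18 to 0.37 for P2ry13, -0.10 to 0.025 for Slc29a1 and -0.020 to 0.058 for Slc29a3, and stayed above 0 for Ada, from 0.11 to 0.29, and Pnp, from 0.14 to 0.22. In these fits the lone library of a group was assumed to vary like the others. Depth limits Adora1, whose counts were 1 to 6 per library.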
